A study of Mus musculus with 7 samples.

Results

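The phase II conjugation enzymes analysed here are 67 protein-coding mouse genes: 25 glutathione S-transferases (GST, with the membrane-bound MGST), 21 UDP-glucuronosyltransferases and related UDP-glycosyltransferases (UGT), and 21 cytosolic sulfotransferases (SULT). They were chosen by symbol in the GENCODE M21 annotation of GRCm38 (Gsta, Gstk, Gstm, Gsto, Gstp, Gstt, Gstz, Mgst, Ugt1 to Ugt3 and Sult1 to Sult6), by a rule that uses no measured value (the group itself was picked with earlier results of these data known), and all 67 were among the 45706 genes of the deposited tables. RNA of whole kidney was sequenced after ribosomal RNA depletion in 7 male Slc7a9-/- mice aged 6 months. The untreated group had 3 mice, and the ergothioneine group had 4 mice given L-ergothioneine at 16 mg/kg/day in the drinking water. Every mouse in the comparison lacked Slc7a9, a subunit of the kidney's cystine uptake transporter whose loss causes cystinuria, so the values describe ergothioneine in the knockout kidney only. Ergothioneine is a sulfur-containing antioxidant amino acid that mammals take up from food. The question is how much of each conjugating enzyme's RNA the kidney held with and without it.

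Phase II enzymes make reactive or poorly soluble molecules easier to export by attaching a polar group. Glutathione transferases join glutathione to electrophiles, and UDP-glucuronosyltransferases attach glucuronic acid or another sugar to steroids, bile pigments and drugs. Sulfotransferases transfer sulfate from the activated donor PAPS to phenols and steroids. The conjugates leave the cell through export pumps. The proximal tubule, the segment that secretes organic anions and drug conjugates into urine, is the main site of these enzymes in kidney. Several glutathione transferase genes are textbook targets of the stress-activated transcription factor NRF2, and several Ugt2b and sulfotransferase genes differ between the sexes in rodents.

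Libraries held 14843899 to 19791575 counts. RNA of genes other than protein-coding ones made up 19.6% and 23.7% of TPM (transcript abundance scaled by length and by library) of the first and second untreated library, against 41.8% to 53.1% of the remaining 5, so levels are given here as protein-coding TPM, rescaled to the same sum over protein-coding genes in every library. These 2 libraries stand apart from untreated library 3, and calls that ended without them are given below. That fit keeps a single untreated kidney, which is assumed to vary like the treated ones, since only these give the spread. Slc7a9, the deleted gene, was at 5.55 to 6.73 CPM (counts scaled to library size) untreated and 5.62 to 9.47 CPM treated, and the labels do not say which exons the deletion removes. The 6 early proximal tubule markers, such as the glucose transporter Slc5a2 and the endocytic receptor Lrp2, summed to 16326 to 19831 CPM untreated and 16712 to 17895 CPM treated, with 0 of 6 changed. Litter, cage and hour of collection are not in the labels, so the p-values set the groups against the spread between these mice only.

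Sequence around the transcription start is shown for 5 genes because the results turn on them: Gsta3, whose test gave the lowest adjusted p of all the members, and 4 genes of the Ugt2b array on chromosome 5, where 2 copies fell and 1 rose. Each window runs from 250 bases before to 50 bases after the start in RefSeq (GRCm38.p6), 5′ to 3′ on the gene's strand. In the Gsta3 window, chr1:21240335-21240634 on the plus strand, the capitals mark the letters TGACNNNGC, a core of the antioxidant response element bound by NRF2:
Gsta3: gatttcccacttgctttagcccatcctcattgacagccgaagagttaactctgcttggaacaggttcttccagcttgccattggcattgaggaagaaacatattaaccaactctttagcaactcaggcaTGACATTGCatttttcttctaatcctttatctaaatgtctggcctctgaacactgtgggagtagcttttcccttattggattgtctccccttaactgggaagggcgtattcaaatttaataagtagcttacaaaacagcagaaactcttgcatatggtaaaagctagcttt
The antioxidant core was found on either strand in 4 of the 59 members that have a window (Gsta3, Gstm5, Gstm7 and Mgst1), beside 12.4% of all 32851 windows. Here and below a member counts if any of its windows holds the letters, while the share of all windows counts each window singly. The 2 are therefore not in the same unit. Of the members called higher below, 1 of 7 with a window held it. Other letters that NRF2 can bind were not searched for, so a window without this match may still hold such a site. In the 3 similar Ugt2b windows the capitals mark the longest run of letters that all 3 share, which is 62 bases long. They are chr5:87254739-87255038, chr5:87424154-87424453 and chr5:87140291-87140590, all on the minus strand:
Ugt2b37: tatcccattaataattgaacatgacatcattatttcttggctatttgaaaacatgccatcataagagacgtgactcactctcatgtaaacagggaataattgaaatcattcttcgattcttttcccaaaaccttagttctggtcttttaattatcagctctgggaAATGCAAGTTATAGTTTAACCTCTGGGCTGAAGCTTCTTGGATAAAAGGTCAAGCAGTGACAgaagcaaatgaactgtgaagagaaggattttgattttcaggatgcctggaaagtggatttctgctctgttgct
Ugt2b38: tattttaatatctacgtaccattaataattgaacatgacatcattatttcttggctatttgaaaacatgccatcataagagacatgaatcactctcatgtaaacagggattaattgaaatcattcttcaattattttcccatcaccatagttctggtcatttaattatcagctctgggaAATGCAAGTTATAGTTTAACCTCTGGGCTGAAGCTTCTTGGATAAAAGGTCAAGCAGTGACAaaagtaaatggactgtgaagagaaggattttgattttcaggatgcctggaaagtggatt
Ugt2b5: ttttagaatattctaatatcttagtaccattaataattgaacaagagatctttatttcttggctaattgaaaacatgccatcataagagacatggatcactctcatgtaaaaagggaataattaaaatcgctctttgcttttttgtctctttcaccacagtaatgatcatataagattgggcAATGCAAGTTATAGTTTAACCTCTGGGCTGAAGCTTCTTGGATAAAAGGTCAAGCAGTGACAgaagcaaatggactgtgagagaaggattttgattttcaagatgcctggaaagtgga
The Ugt2b34 window, chr5:86906888-86907187 on the minus strand, has no such run:
Ugt2b34: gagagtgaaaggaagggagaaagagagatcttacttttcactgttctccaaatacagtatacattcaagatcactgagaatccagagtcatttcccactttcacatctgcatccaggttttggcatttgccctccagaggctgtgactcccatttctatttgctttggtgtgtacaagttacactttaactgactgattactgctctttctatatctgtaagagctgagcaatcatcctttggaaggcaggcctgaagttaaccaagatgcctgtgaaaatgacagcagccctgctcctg
Aligned over their 300 bases, the windows of Ugt2b37 and Ugt2b38 were identical at 274 positions (91.3%), and that of Ugt2b5 was 82.3% identical to the first and 87.0% to the second. Ugt2b34 was 54.0% to 54.7% identical to each of these 3. The other motifs were also searched on both strands. The aryl hydrocarbon receptor core GCGTG was in a window of 12 of 59 members, beside 32.4% of all windows. These were Gsta1, Gstp1 and Mgst3, called higher, and Gsta2, Gstm1, Gstm5, Sult1b1, Sult1d1, Sult2b1 and Ugt1a5, not called, with the untested Gstp3 and Ugt1a8. The E-box CACGTG was in 0 of 59 (7.15% of all windows), and the D-box TTATGTAA or TTACGTAA in 1 of 59, Ugt2b1 (1.06%). None of the 4 motifs was in the windows of the genes called lower, Ugt2b37 and Ugt2b38. A match is a match of letters only, and 2 different motifs overlapped in 1 window.

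The kidney held a few conjugating enzymes at high level and most at low level or not at all. Of the 67 genes, 41 had enough counts to be tested and 26 had not, with 8 at 0 counts in every library and none of the 26 above 23 counts in a library. Glutathione transferases and UGTs were each well represented. Sulfotransferases were not: 15 of 21 SULT genes were untested, and all 8 of the Sult2a genes, which in liver act on bile acids and hydroxysteroids, were among them. The untested glutathione transferases were Gstm3, Gsto2, Gstp3, Gstt4 and Mgst2.

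Ugt3a2, a UDP-glycosyltransferase of the UGT3 family, had the highest level of all members, 1193 ± 37.7 protein-coding TPM untreated and 1151 ± 99.5 treated (SD, n = 3 and 4). It made up 17.7% of the members' summed TPM. Sult1d1, a sulfotransferase acting on catecholamines and other phenols, was at 667 ± 39.6 and 733 ± 79.1, and made up 84.8% of all SULT TPM. Gstp1, the pi-class transferase, Ugt2b38, of the steroid-conjugating UGT2B subfamily, and Gstm1, a mu-class transferase, had means over the 7 libraries of 648, 619 and 571. The order of Sult1d1 and these 3 differed by group: untreated, Ugt2b38 (732 ± 57.4) was highest and Gstp1 (529.7 ± 26.3) lowest, and treated, Gstp1 (736 ± 59.2) and Sult1d1 were level and Ugt2b38 (535 ± 67.9) was lowest. Ugt2b38 was at 687 to 796 and Gstp1 at 506 to 558 in the untreated libraries. In the treated ones Ugt2b38 was at 467 to 607 and Gstp1 at 689.8 to 823. Gstp1 lay below Ugt2b38 in all 3 untreated kidneys and above it in all 4 treated ones.

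**Figure D1:**
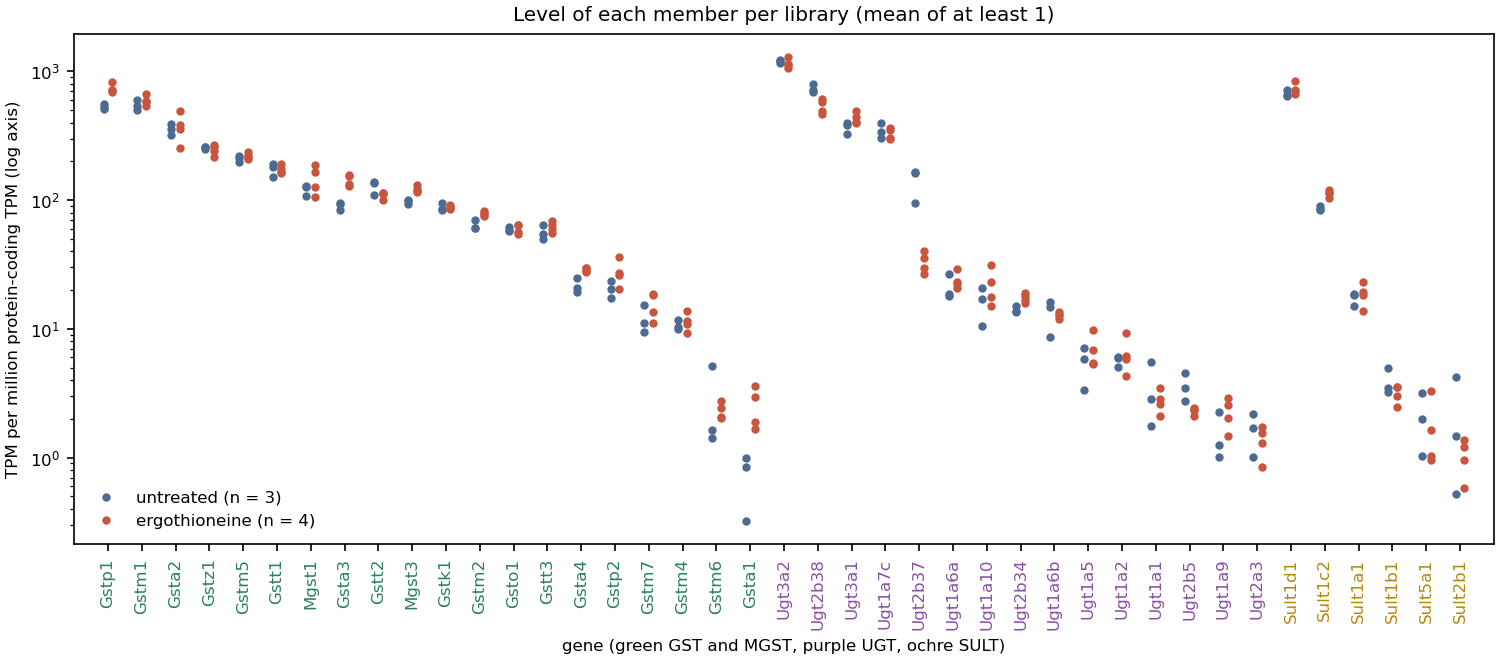
Level of the members with a mean of at least 1 protein-coding TPM (log axis), ordered by level within family, with a point per library, untreated (blue) and ergothioneine (red). Ugt3a2 and Sult1d1 lead their families, Gstp1 and Gstm1 lie at the top of theirs, and the groups of Gstp1 and Ugt2b38 stand apart in opposite directions.

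Summed over each family, the glutathione transferases took 2842 ± 85.4 protein-coding TPM untreated (2749 to 2916) and 3236 ± 280.3 treated (3029 to 3647). The groups did not overlap. UGTs took 2868 ± 129.7 (2724 to 2976) and 2579 ± 206 (2347 to 2849), and SULTs 780.0 ± 38.0 and 869.97 ± 87.0, both with overlapping groups. These sums are dominated by the few abundant members, are descriptions without a test, and in bulk tissue cannot tell fewer cells of a type from less RNA per cell.

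Of the 41 tested members 8 were called higher and 2 lower with ergothioneine (edgeR quasi-likelihood test, Benjamini-Hochberg adjusted p under 0.05 over all 15399 tested genes), which is 24.4% of them, beside 7.16% of all tested genes. By direction the background was 3.58% higher and 3.57% lower. Without untreated library 1 the calls were 4 higher, 3 of them glutathione transferases, and 1 lower of 42 tested members, beside 4.91% of all genes. Without untreated libraries 1 and 2 they were 6 higher and 0 lower of 43, beside 3.43% of all genes. On log2(TPM + 1) the split was 1 higher and 4 lower among members, and 54 higher and 1484 lower among all genes (9.99% called). The calls were 6 higher and 0 lower of 20 glutathione transferases, 1 higher and 2 lower of 15 UGTs, and 1 higher and 0 lower of 6 SULTs. The median log2 fold change was 0.12 over the tested members (0.12 for glutathione transferases, -0.03 for UGTs and 0.12 for SULTs), and -0.00 over all tested genes. The CPM of the groups did not overlap for 13 members, 9 higher and 4 lower, where the background was 18.6% of tested genes (9.46% higher and 9.11% lower). These are counts over the members that passed the filter on low counts, and the filter itself can admit a gene through the group in which it is higher. Gsta1 is such a gene: it passed through the treated group alone, so its call is no support for a count.

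**Figure D2:**
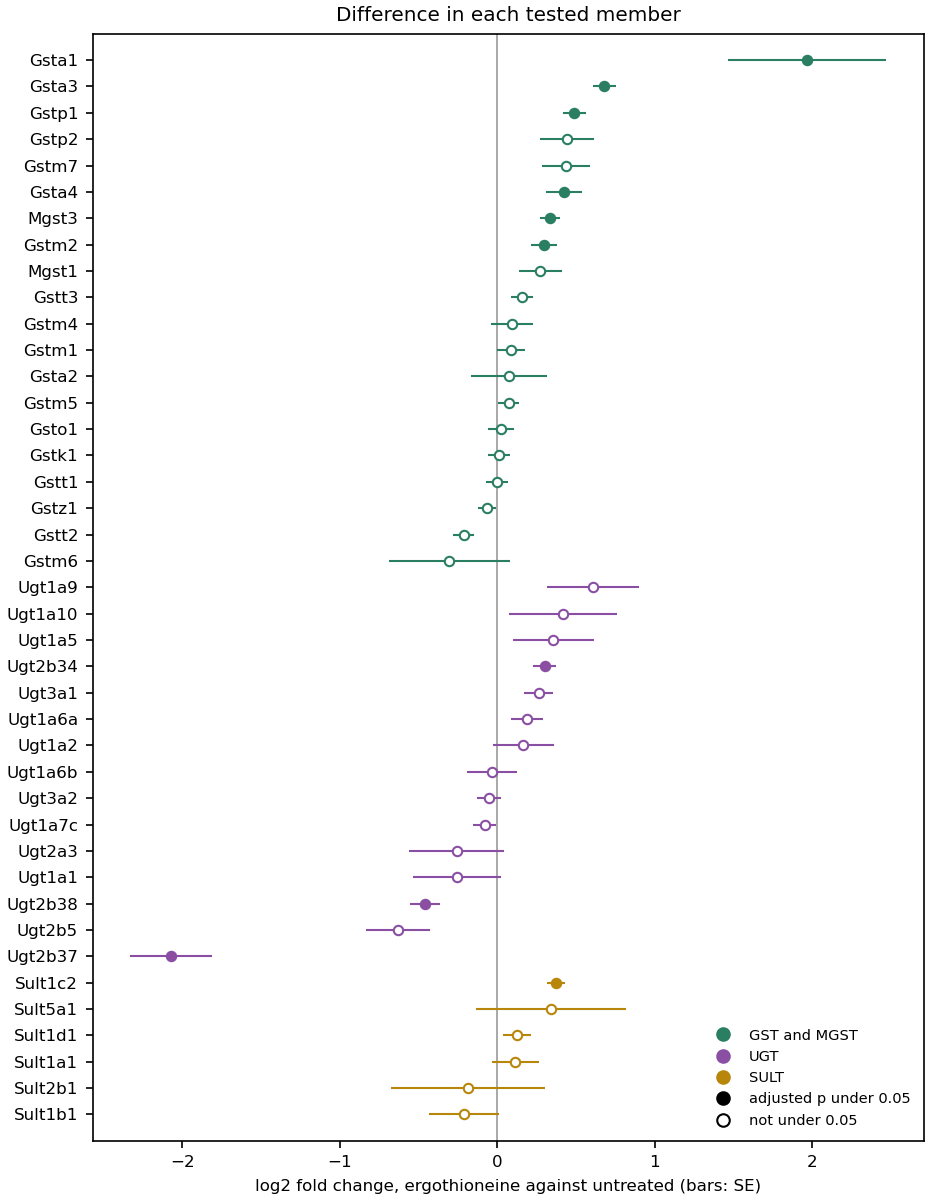
Log2 fold change of each tested member, ergothioneine over untreated, with its standard error, ordered within family, with filled points for members past an adjusted p of 0.05. Of these, 8 lie above 0 and 2, Ugt2b37 and Ugt2b38, below it; on log2(TPM + 1), where the median of all genes was -0.31, Gstm2, Mgst3 and Ugt2b34 lie below 0.

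Among the alpha-class glutathione transferases, which act on lipid peroxidation products and steroid substrates, Gsta3 and Gsta4 rose, Gsta1 was called higher after passing the filter through the treated group alone, and Gsta2 gave no call. Gsta3 (chromosome 1, 21240589 to 21265661), known in mice for detoxifying aflatoxin epoxide, was at 53.8, 65.5 and 57.4 CPM in the untreated kidneys and at 88.6, 96.4, 91.6 and 100.4 CPM in the treated ones. Every treated kidney lay above every untreated one. The means were 58.9 ± 5.96 and 94.3 ± 5.19 CPM (SD, n = 3 and 4), a log2 fold change of 0.68 ± 0.07 (SE; edgeR adjusted p = 1.53e-05). Gsta3 shares no stretch of 75 bases with another gene's transcript. The antisense gene Gm28836 overlaps it, and the strand setting of the counting is not given in the sources used here.

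Gsta4 (chromosome 9, 78182774 to 78209349), which conjugates the lipid aldehyde hydroxynonenal, was at 8.33, 8.04 and 9.23 CPM untreated and at 12.5, 10.6, 11.3 and 11.3 CPM treated. The groups did not overlap, at 8.54 ± 0.622 and 11.5 ± 0.798 CPM, and the log2 fold change was 0.42 ± 0.11 (edgeR adjusted p = 0.0308). The call was lost in 4 of the 7 fits that each left out a library, those without untreated library 1, untreated library 2, treated library 1 or treated library 4, with adjusted p up to 0.0989. Without both untreated libraries 1 and 2 it was 0.31 ± 0.17 (adjusted p = 0.369).

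Gsta1 was close to the limit of detection. Untreated libraries gave it 2, 3 and 5 counts, and treated libraries 19, 21, 10 and 11. The groups did not overlap, and the fitted log2 fold change was 1.97 ± 0.50 (edgeR adjusted p = 0.0232). With so few reads the size of this change is uncertain, and 35.6% of the gene's 75-base stretches also occur in Gsta2 or Gm10639, so reads could be assigned to either. Leaving out library 1 or 2 of either group ended its call, with adjusted p up to 0.117, and without both untreated libraries 1 and 2 the adjusted p was 0.382. Gsta2, the abundant alpha-class neighbour, gave no call: it was at 131, 109.8 and 109.7 CPM untreated and at 135, 158, 119.5 and 80.8 CPM treated. Treated kidneys covered and exceeded the untreated range, and its log2 fold change of 0.08 ± 0.24 (edgeR adjusted p = 0.91) turned to -0.06 without treated library 2. Summed over the chromosome 9 cluster of Gsta1, Gsta2 and Gsta4 the log2 fold change was 0.11 ± 0.22 (adjusted p = 0.847, with each cluster as a single row of the fit), so the rises of Gsta1 and Gsta4 were small beside the RNA of Gsta2.

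Gstp1 (chromosome 19, 4035407 to 4037985), an abundant transferase, rose. It was at 156, 151 and 131 CPM untreated and at 209, 221, 206 and 184 CPM treated. Untreated library 3 was the lowest of all and treated library 4 the lowest of the treated, and the groups did not overlap. The means were 146 ± 13.3 and 205 ± 15.3 CPM, and the log2 fold change was 0.49 ± 0.07 (edgeR adjusted p = 0.000462). Of the 75-base stretches of Gstp1, 44.5% also occur in its neighbour Gstp2, and 40.1% of those of Gstp2 occur in Gstp1. Gstp2, from 5.76 ± 0.857 to 7.85 ± 1.64 CPM, had a log2 fold change of 0.44 ± 0.17 that did not pass (adjusted p = 0.132). The summed Gstp cluster went from 152 ± 13.7 to 213 ± 16.3 CPM, 0.49 ± 0.07 (adjusted p = 0.000476), so the rise was also seen with the reads of these copies added up. Gstp-ps, which shares stretches with both, is not part of that sum.

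In the mu class, on chromosome 3, 1 of 6 tested genes rose, beside 3.58% of all tested genes called higher. Gstm2 was at 28.1, 32.9 and 25.7 CPM untreated and at 35.9, 35.7, 36.0 and 34.4 CPM treated. The treated kidneys lay close together and above the untreated ones. The log2 fold change was 0.30 ± 0.08 (edgeR adjusted p = 0.0341), and it was the least stable call of the family, lost in 5 of the 7 fits that left out a library: untreated 1 and 3, and treated 1, 2 and 3 (adjusted p up to 0.143). Gstm1, the abundant mu-class gene, was at 307 ± 41.9 and 326 ± 28.6 CPM (0.09 ± 0.09, adjusted p = 0.656), with overlapping groups. Gstm7 (0.44 ± 0.15, adjusted p = 0.0921) did not pass, but did with no filter on low counts (adjusted p = 0.0385) and without treated library 3 (0.54 ± 0.14, adjusted p = 0.027), and the summed Gstm cluster stood at 0.11 ± 0.07 (adjusted p = 0.476).

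Mgst3, a microsomal transferase of the leukotriene C4 synthase family, rose as well. It was at 45.7, 48.8 and 44.4 CPM untreated and at 60.1, 60.5, 56.3 and 56.4 CPM treated. The groups were separated by more than the range within either. The log2 fold change was 0.33 ± 0.06 (edgeR adjusted p = 0.00371) and was past the threshold in all 7 fits that left out a library. Mgst1, a microsomal transferase that protects membranes from lipid peroxides, was at 52.3 ± 4.28 and 63.2 ± 10.9 CPM (0.27 ± 0.14, adjusted p = 0.318), with treated library 4 inside the untreated range. It passed without that library (0.38, edgeR adjusted p = 0.00982).

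The remaining classes gave no call. Gstt2, a theta-class transferase, was the single tested glutathione transferase whose treated kidneys (68.0, 70.5, 72.7 and 69.7 CPM) all lay below the untreated ones (89.5, 73.4 and 81.1 CPM), at -0.21 ± 0.07 (adjusted p = 0.067, and -0.28 ± 0.06 with adjusted p = 0.0158 without untreated library 2). Gstz1, the zeta-class enzyme of tyrosine breakdown known as maleylacetoacetate isomerase, was at 209 ± 12.8 and 199 ± 9.0 CPM (-0.06 ± 0.06, adjusted p = 0.605). Over the whole family 16 of 20 tested genes had a log2 fold change above 0 and 4 below.

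**Figure D3:**
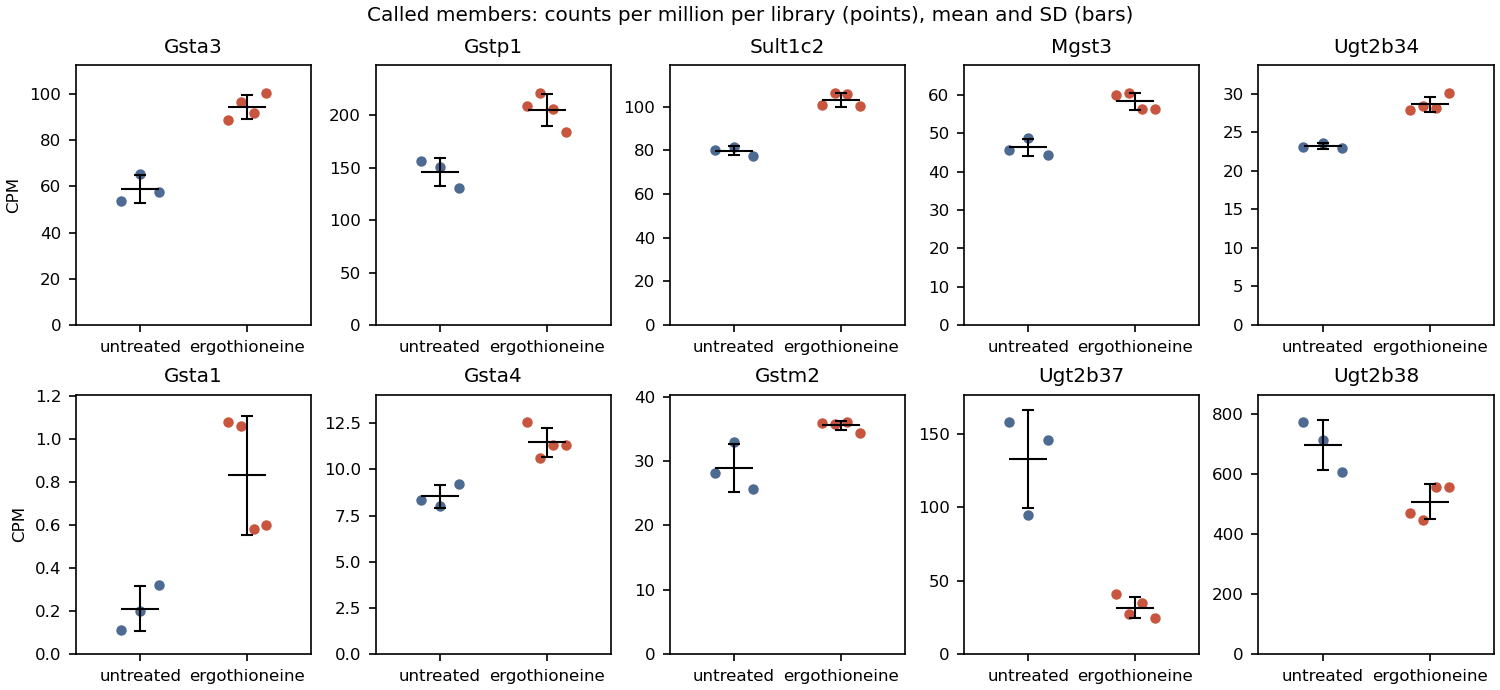
CPM of the 10 members past an adjusted p of 0.05, a panel per gene with its own axis from 0, with a point per library, a line at each group mean and bars of 1 SD. In all 10 panels the untreated and ergothioneine points do not overlap, as they do not for 18.6% of all tested genes. The genes were picked by a test on these same values, so this separation adds no support.

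The UGT genes split by array. The Ugt2b array on chromosome 5 (86889767 to 87424203) encodes enzymes that act on steroids and fatty acids. Of its 4 tested genes 3 were called, 2 lower and 1 higher, beside 3.57% of all tested genes lower and 3.58% higher. Ugt2b37 showed the largest change of any member. It was at 158, 94.9 and 146 CPM untreated and at 40.7, 27.2, 34.5 and 24.6 CPM treated. The lowest untreated kidney was above the highest treated kidney by more than the whole treated range. The means were 133 ± 33.4 and 31.8 ± 7.27 CPM, and the log2 fold change was -2.07 ± 0.26 (edgeR adjusted p = 0.0114). It held in all 7 fits that left out a library (-2.26 to -1.92, adjusted p up to 0.0459), and missed without both untreated libraries 1 and 2, which left a single untreated kidney (-2.20 ± 0.28, adjusted p = 0.0587).

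Ugt2b38, the abundant gene of the array, fell by a smaller fold. It was at 772, 712 and 606 CPM untreated and at 469.6, 445, 557 and 556 CPM treated. Untreated library 3 was nearest to the treated kidneys, and the groups did not overlap. The means were 696 ± 84.1 and 507 ± 58.1 CPM, and the log2 fold change was -0.46 ± 0.10 (edgeR adjusted p = 0.0132). Without untreated library 1 it was -0.38 (adjusted p = 0.0524), without untreated library 2 -0.44 (adjusted p = 0.0966), and without both -0.25 ± 0.12 (adjusted p = 0.333), so this call rested on those libraries. In CPM the drop of Ugt2b38 was the larger in amount, since it carried most of the array.

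Ugt2b34, at the other end of the array, rose. It was at 23.1, 23.7 and 23.0 CPM untreated and at 27.9, 28.5, 28.1 and 30.1 CPM treated. Kidneys of a group hardly differed and the groups stood apart. The log2 fold change was 0.30 ± 0.07 (edgeR adjusted p = 0.0177), lost when the first untreated or the fourth treated library was left out (adjusted p up to 0.0599), and without both untreated libraries 1 and 2 (0.32 ± 0.11, adjusted p = 0.133). Ugt2b5, at 3.29 ± 0.616 and 2.13 ± 0.124 CPM, had groups that did not overlap but did not pass (-0.63 ± 0.21, adjusted p = 0.0753). By limma on the 3 TPM scales that were not rescaled, where the median of all genes also lay below 0, it was called lower (adjusted p = 0.01 to 0.0255).

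The makeup of the array therefore differed between the groups. Ugt2b37 was 16.5%, 11.4% and 18.7% of the array's CPM in the untreated kidneys and 7.52%, 5.41%, 5.55% and 4.01% in the treated ones. Ugt2b38 went from 77.8% to 85.5% of the array untreated to 86.9% to 90.7% treated, and Ugt2b34 from 2.42% to 2.95% to 4.52% to 5.66%. None of these shares overlapped between groups. The 3 genes were called on these same values, and shares of 1 total move together, so this separation adds no support. Ugt2b38 rose in share while its CPM fell. The array as a whole fell, from 856 ± 91.0 to 570 ± 57.5 CPM (-0.59 ± 0.09, edgeR adjusted p = 0.000517, with its genes summed), and stood at -0.45 ± 0.11 (adjusted p = 0.038) with untreated library 3 as the only untreated kidney. Read sharing was limited for Ugt2b37 (6.37% of its 75-base stretches occur in another gene) and Ugt2b34 (0.858%), and larger for Ugt2b38 (28.0%) and Ugt2b5 (30.4%). The start windows shown above for Ugt2b37 and Ugt2b38, whose RNA fell by different amounts, are the pair with 91.3% identity.

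**Figure D4:**
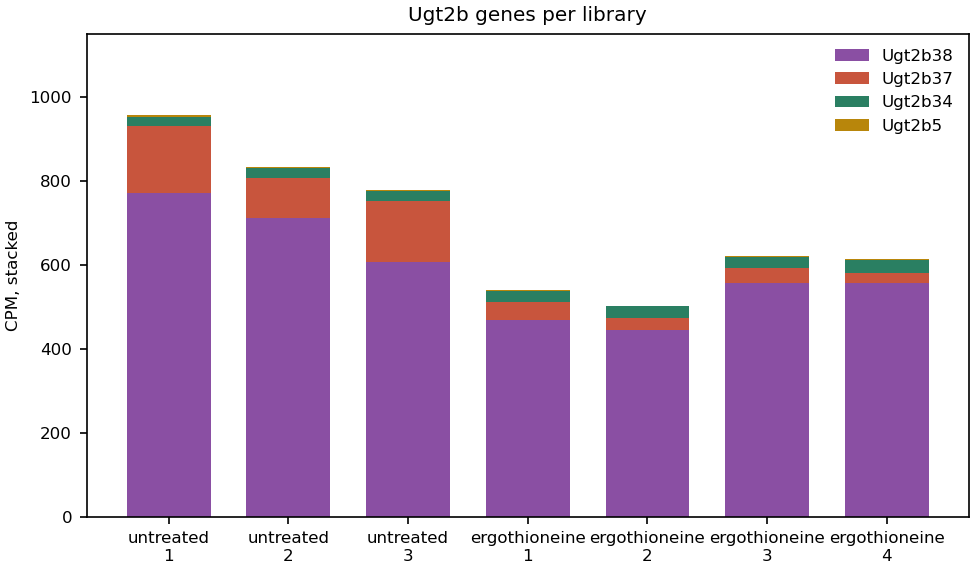
CPM of the 4 tested Ugt2b genes stacked in a bar per library, untreated and ergothioneine. The bars are lower in the 4 treated libraries, and the Ugt2b37 segment goes from 94.9 to 158 CPM untreated to 24.6 to 40.7 CPM treated.

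The other UGT arrays gave no call. The Ugt1a genes on chromosome 1 encode the enzymes of bilirubin, phenol and drug glucuronidation, and have separate first exons joined to the same last exons. Their transcripts share 53.4% to 95.7% of 75-base stretches, so only the sum is firm: it was 659 ± 47.7 CPM untreated and 639 ± 54.9 CPM treated (-0.04 ± 0.07, edgeR adjusted p = 0.807). Ugt1a7c, listed as the most abundant of them, was at 582 ± 41.2 and 551 ± 50.5 CPM (-0.08 ± 0.07, adjusted p = 0.612). In the UGT3 pair on chromosome 15, which use sugars other than glucuronic acid, Ugt3a2 was at 1434 ± 64.2 and 1383 ± 131 CPM (-0.05 ± 0.08, adjusted p = 0.778). Ugt3a1 was at 367, 350.2 and 284 CPM untreated and at 396, 385, 452 and 367 CPM treated. All its treated values were above the untreated ones by a narrow margin (0.26 ± 0.09, adjusted p = 0.11), and the difference passed only without untreated libraries 1 and 2 (0.50 ± 0.10, adjusted p = 0.0156). The sum of the pair stood at a log2 fold change close to 0 (0.01 ± 0.08, adjusted p = 0.952).

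Of the sulfotransferases 1 of 6 tested genes rose, beside 3.58% of all tested genes called higher. Sult1c2 (chromosome 17, 53829637 to 53846339), a member of the phenol-type SULT1 family, was at 80.3, 81.6 and 77.5 CPM untreated and at 101, 106, 106 and 100.1 CPM treated. The groups were tight and far apart. The means were 79.8 ± 2.08 and 103 ± 3.22 CPM, and the log2 fold change was 0.37 ± 0.06 (edgeR adjusted p = 0.00048), past the threshold in all 7 fits that left out a library. Sult1d1, with most of the sulfotransferase RNA, was at 838 ± 104 and 914 ± 85.8 CPM (0.13 ± 0.09, adjusted p = 0.481). Sult1a1, the phenol sulfotransferase, was at 9.92 ± 0.603 and 10.7 ± 2.22 CPM (0.12 ± 0.15, adjusted p = 0.73). Both had overlapping groups.

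The strength of the 10 calls differed. Gsta3, Gstp1, Mgst3, Sult1c2 and Ugt2b37 kept theirs in all 7 fits that left out a library. The first 4 also passed against untreated library 3 alone, the lowest untreated library for Gstp1, Mgst3 and Sult1c2, in a fit whose spread comes from the treated kidneys only. On the deposited TPM, where the median of all tested genes moved to -0.31 on the log2(TPM + 1) scale, Gsta1, Ugt2b37 and Ugt2b38 kept their calls. The other 7 lost theirs: they stood between -0.08 (Gstm2) and 0.28 (Gsta3), all above that median, with Gstm2, Mgst3 and Ugt2b34 below 0. On protein-coding TPM, where the median was -0.00, 6 calls were kept and Gsta4, Gstm2, Mgst3 and Ugt2b34 were lost.

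**Figure D5:**
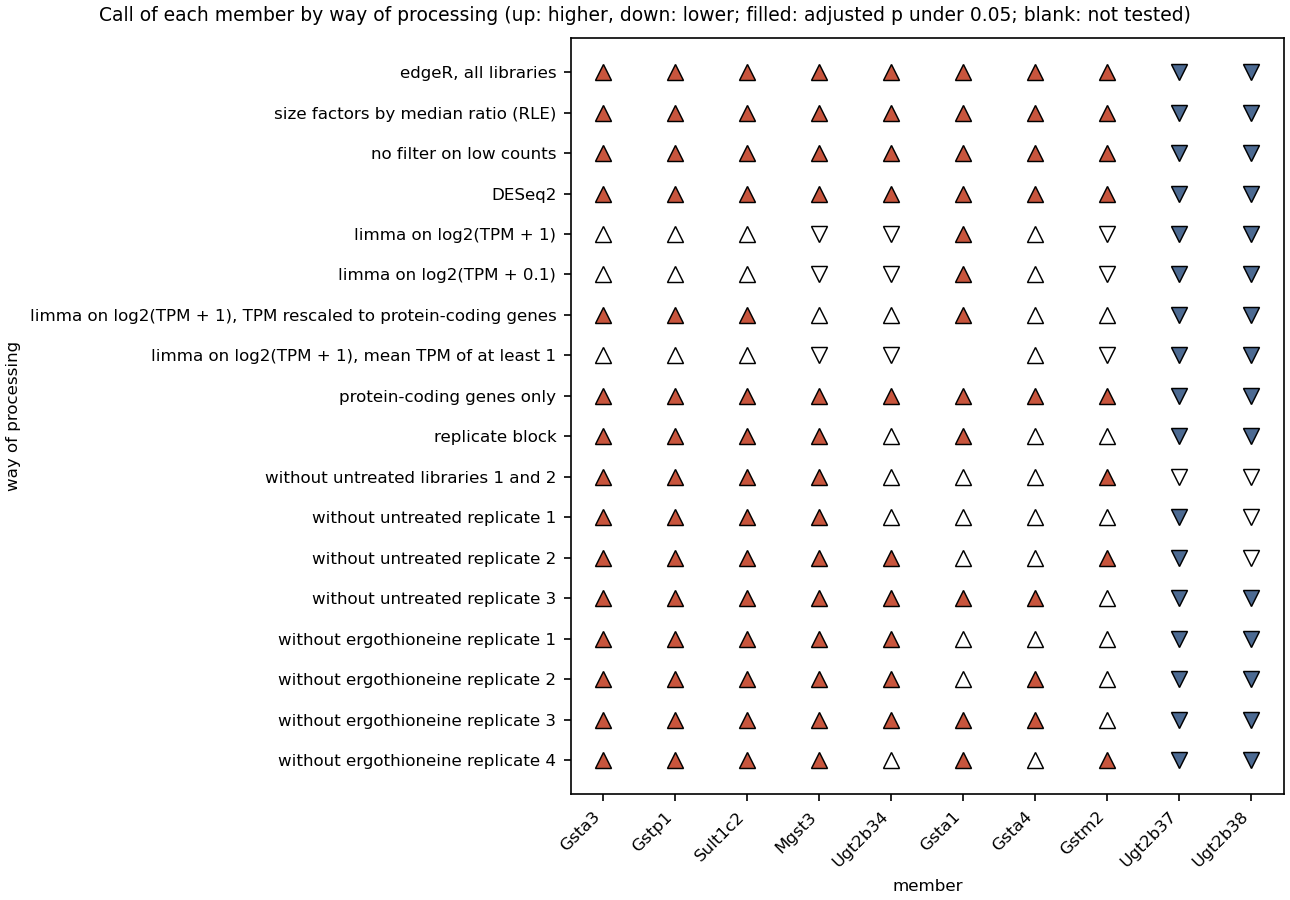
Direction and call of the 10 members under each way of processing (rows), with filled triangles for an adjusted p under 0.05 and upward triangles for higher with ergothioneine. The columns of Gsta3, Gstp1 and Sult1c2 are filled except on TPM that was not rescaled, while Gsta4, Gstm2, Gsta1, Ugt2b34 and Ugt2b38 have open triangles without some libraries. Ugt2b37 has an open triangle only without both untreated libraries 1 and 2. Mgst3, Ugt2b34 and Gstm2 point down on TPM that was not rescaled.

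The supply of cosubstrates, the other phase II enzymes, the export pumps and the regulators were read from lists of 73 genes. They were chosen with earlier results of these data known. Of these, 69 were tested, 9 rose and 7 fell (23.2% called), beside 7.16% of all tested genes, 3.58% higher and 3.57% lower. In glutathione supply and mercapturate formation 2 of 10 rose and 1 fell. Of the 10 log2 fold changes 2 lay above 0 and 8 below, with a median of -0.07. The glutathione-making genes Gclc (-0.16), Gclm (-0.03) and Gss (-0.02) were among the genes not called. The glutathione reductase Gsr went from 162 ± 7.66 to 212 ± 14.5 CPM and the dipeptidase Dpep1, which trims glutathione conjugates, from 104.7 ± 10.7 to 124 ± 6.89 (0.24 ± 0.07, edgeR adjusted p = 0.043). Nat8, the cysteine conjugate N-acetyltransferase that completes mercapturates, fell from 105.0 ± 9.38 to 68.1 ± 5.31 CPM (-0.62 ± 0.07).

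The next 4 lists stand beside 3.58% of all tested genes called higher and 3.57% lower. In sulfate supply 3 of 10 tested genes rose, Slc35b2, which carries PAPS into the Golgi (0.43 ± 0.08), the sulfate anion exchanger Slc26a1 (0.31 ± 0.06) and the nucleotidase Bpnt1, which clears spent PAPS (0.20 ± 0.06, edgeR adjusted p = 0.041). In glucuronate supply 1 of 7 rose, the aldehyde reductase Akr1a1 (0.24 ± 0.07, adjusted p = 0.038). Of 13 other phase II enzymes 2 rose, among them the quinone reductase Nqo1 (0.97 ± 0.08), and 1 fell, Ugt8a, the galactosyltransferase of myelin lipids (-0.50 ± 0.09). Of 11 transporters Abcc2, the apical pump for glutathione and glucuronide conjugates, rose (0.33 ± 0.08, adjusted p = 0.015). On log2(TPM + 1) Dpep1, Slc26a1, Bpnt1, Akr1a1 and Abcc2 lay between -0.12 and -0.33, with Abcc2 near the median of all genes there and the other 4 above it. Against untreated library 3 alone the calls of Slc35b2 (adjusted p = 0.0518), Slc26a1 (0.247), Bpnt1 (0.128), Akr1a1 (0.274), Ugt8a (0.162) and Abcc2 (0.155) were lost.

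Of 18 tested regulators 0 rose and 5 fell, beside 3.58% of all tested genes higher and 3.57% lower. The D-box factors Dbp (from 126 ± 13.6 to 35.4 ± 7.83 CPM), Tef (-0.80 ± 0.07) and Hlf (-0.51 ± 0.06), which are output factors of the circadian clock, fell together, as did the oestrogen receptor Esr1 (-0.77 ± 0.09) and the fatty acid receptor Ppara (-0.58 ± 0.11, edgeR adjusted p = 0.013, named after its value was seen). Nfe2l2, which encodes NRF2, was at -0.13 ± 0.07 (adjusted p = 0.283), and the aryl hydrocarbon receptor Ahr at 0.27 ± 0.10 (adjusted p = 0.108). Against untreated library 3 alone Dbp missed the threshold (-1.91 ± 0.31, adjusted p = 0.0947). The part of clock time in the members' values was not tested.

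Markers of some cell types differed between the groups, where 7.16% of all tested genes were called. No marker was called among 5 of endothelium, 3 of the distal convoluted tubule, 5 of urothelium and 2 tested of red blood cells. Podocyte markers had 1 of 4 higher, fibroblast and mural cell markers 1 of 5 higher, and leukocyte markers 1 of 5 tested lower. The 7 markers of the straight proximal tubule, the segment in which many transferases are richest, summed to 4466 to 4732 CPM untreated and 3439 to 3683 CPM treated. The list was split: 3 log2 fold changes lay above 0 and 4 below, from -0.56 to 0.15, with a median of -0.02. Called lower were 3 of 7: the amino acid transporter Slc7a13 (-0.56), the lipid flippase Atp11a (-0.42) and the lactate transporter Slc5a8 (-0.36). Of 6 androgen-regulated proximal tubule genes 5 had a log2 fold change below 0 and 1 above, with a median of -0.64. The 3 called lower were the cytochromes P450 Cyp4b1 (-0.67) and Cyp2e1 (-0.75) and the organic anion transporter family gene Slc22a30 (-0.61). Kap, the kidney androgen-regulated protein, was the 1 above 0, at 0.12, and was not called. Cyp2e1 lost its call against untreated library 3 alone (adjusted p = 0.0914). The sum of these 6 ranged from 13224 to 13763 CPM untreated and from 11025 to 14500 CPM treated. The adipocyte markers, of which 6 of 6 tested fell, summed to 51.9 to 63.9 CPM and 11.8 to 20.2 CPM, and the collecting duct markers, of which 3 of 7 rose, to 299 to 323 CPM and 340 to 409 CPM. Of the thick ascending limb markers 2 of 4 rose, the sodium-potassium-chloride cotransporter Slc12a1 (0.34 ± 0.08) and the claudin Cldn10 (0.31 ± 0.09), and the 4 summed to 3877 to 4269 CPM and 4257 to 4936 CPM. The part of these cells in the members' values was not tested.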

How the data were processed

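Per the labels' protocols, total RNA of frozen kidney was depleted of ribosomal RNA and made into stranded libraries. Per the submitters' processing notes, the tools included STAR 2.7.10a, RSEM 1.3.1, Salmon 1.10.1 and featureCounts with builds GRCm38 and mm10, given without role or order. The deposited values are expected counts (estimated counts, of which 3.61% were not within 0.001 of a whole number) and TPM, made by the authors, 1 column per mouse. Neither the annotation release nor the counting strand is given in the sources used here. The members and the gene lists were chosen with earlier results of these data known.

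Expected counts were rounded and tested in R 4.3.3 with edgeR 4.0.16 (filterByExpr by group, TMM, robust quasi-likelihood F test, Benjamini-Hochberg over 15399 genes, threshold 0.05). A log2 fold change's standard error is its size over the root of F. CPM use TMM library sizes. For cluster sums, members of a class with starts within 500000 bases of the next were added up and refitted with the other genes. Library totals and their ranges stand in the opening of the results. No pair of libraries agreed within sampling noise. The fit was also run on simulated counts, with an outcome that is not reported here. Alternatives were DESeq2 1.42.0, other scaling and filters, limma 3.58.1 on log2(TPM + pseudocount), the replicate number as a block, each library left out in turn, and both untreated libraries 1 and 2 left out. RefSeq start windows (GRCm38.p6) were matched by symbol for 59 of the 67 members; the planned protein identity was replaced by shared 75-base transcript stretches, since protein sequences were not used here. Named genes are every member past the threshold, the 3 most abundant of each family, up to 4 called genes per list, and others where a small count rests on them. Further members, Ppara and the markers with values were named after their values were seen. A called gene of the pathway lists is counted but not reported by name here.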

Additional observations from a re-analysis of the deposited data

Results flagged for a closer look

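In the ergothioneine group of 4, Ugt1a6a stood at 34.5 CPM in treated library 2, and at 27.8 to 28.7 CPM in the other 3. The gap to the nearest library was 0.86 of the group's range, above Dixon's critical value for 4 samples. The gene was the only member of 41 checked in that group to stand out in this way, where chance gives about 1 in 20, and the 3 untreated libraries are too few for the check. Ugt1a6a shares its last exons with the other Ugt1a genes, so its own level is uncertain.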

How the results depend on the processing

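The counts of all genes called were 552 higher and 550 lower, of members 8 and 2, of cluster sums 3 and of listed pathway genes 16. DESeq2, median-ratio scaling, no filter on low counts and protein-coding genes alone kept all 10 members' calls. The TPM fits differed most; the medians of all genes there were -0.31 (pseudocount 1), -0.37 (0.1) and -0.33 (mean TPM of at least 1). With pseudocount 1, 54 genes were higher and 1484 lower, members 1 and 4, glutathione transferases 1 higher, UGTs 0 higher, SULTs 0 higher and 1 lower, and 1 cluster sum was called. With pseudocount 0.1, 53 genes were higher and 1424 lower, 1 member and 1 glutathione transferase higher, UGTs and SULTs 0 higher, and 1 cluster sum called. With a mean TPM of at least 1, 40 genes were higher and 1200 lower, members, glutathione transferases, UGTs and SULTs 0 higher, and 1 cluster sum called. On protein-coding TPM 136 genes were higher and 146 lower, members 4, glutathione transferases 3 and UGTs 0 higher, and 8 pathway genes called. In the order pseudocount 1, 0.1 and mean TPM of at least 1, log2 fold changes turned to -0.077 for Gstm2, -0.045 for Mgst3, -0.062, -0.066 and -0.062 for Ugt2b34, -0.25 for Gstm1, -0.34 for Gsta2, -0.0034, -0.0056 and -0.0034 for Gstm7, -0.12, -0.13 and -0.12 for Mgst1, -0.26, -0.28 and -0.26 for Sult1a1, -0.24 for Sult1d1, -0.14 for Ugt3a1, -0.12 for Dpep1, -0.14 for Akr1a1, -0.12 for Slc26a1, -0.19, -0.20 and -0.19 for Bpnt1, -0.33 for Abcc2 and -0.29 for Kap, and to -0.31 for the Gsta, -0.24 for the Gstm and -0.35 for the Ugt3a cluster sum. Without untreated libraries 1 and 2, 249 genes were higher and 307 lower, 0 members and 0 UGTs lower and 9 pathway genes called, and Ugt3a2 turned to 0.025 and Gstz1 to 0.027. Leaving out each library in turn gave log2 fold changes of -0.065 to 0.23 for Gsta2, -0.016 to 0.26 for the Gsta sum, -0.0088 to 0.24 for Sult1a1 (each lowest without treated library 2), -0.058 to 0.050 for the Ugt3a sum and -0.086 to 0.015 for the Ugt1a sum, and 350 to 514 genes higher and 337 to 589 lower, 4 to 8 members higher and 1 to 2 lower, 3 to 6 glutathione transferases higher and 0 to 1 lower, 0 to 1 UGTs higher and 1 to 2 lower, and 12 to 17 pathway genes. The causes were not tested. Replicate numbers did not pair the samples (same-number correlations 0.027, -0.068 and 0.0027); with the replicate number as a block 396 genes were higher and 413 lower, members 6 and 2, UGTs 0 higher, and the Ugt1a sum turned to 0.0042. Gsta4, Gstm2 and Ugt2b34 lost their calls and Mgst1 gained one. None of the 26 untested members was above 23 counts in a library, with 8 at 0 in every library, and Gsta1 had at most 21. The part of depth was not tested.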
